A study of Homo sapiens with 4 samples.

Results

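RNA interference machinery was examined as 10 genes, found by their symbols among the 40205 genes of the 4 libraries: *DROSHA*, *DGCR8*, *XPO5*, *DICER1*, *TARBP2*, *AGO1*, *AGO2*, *AGO3*, *AGO4* and *TNRC6A*. All 10 were listed, and all 10 passed the filter on low values. The libraries came from human lung cancer cells transfected for 24 h with a negative control (NC, a scrambled siRNA in the study design, 2 libraries) or with an siRNA against circZFR (si-circZFR, 2 libraries), a circular RNA made from exons of *ZFR*. Thus, both groups held a transfected small RNA, and an untransfected group was not analysed here. The labels do not say whether the 2 libraries of a group came from separate cultures, so the p-values reach no further than the spread between these libraries. Standard errors and p-values by limma also draw on the spread of all genes tested (median prior degrees of freedom 4.91). They are therefore not a measure of a gene's own replicates alone. Paired values are given with replicate 1 first. In bulk RNA, fewer expressing cells and less RNA per cell cannot be told apart.

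In the canonical pathway, a primary microRNA transcript is cut in the nucleus by Microprocessor, in which DROSHA is the RNase III enzyme and DGCR8 the RNA-binding partner. XPO5 carries the hairpin to the cytoplasm, where DICER1, with the double-stranded RNA-binding protein TARBP2, trims it to a short duplex. One strand is kept by an Argonaute (AGO1 to AGO4), and TNRC6A, a GW182 protein, links the loaded Argonaute to deadenylation and decapping. A synthetic siRNA is already a short duplex. It enters the same Argonautes without the nuclear steps, and AGO2 is the Argonaute known for efficient slicing of a fully paired target.

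The siRNA listed for circZFR is shown because it is the duplex that this machinery was given. Its strands, without the overhang, are written with bases 2 to 8 (the seed) in capitals, and the guide strand is the reverse complement of the listed strand.
si-circZFR sense strand: cCAAGCUGgcccuuacguc
si-circZFR guide strand: gACGUAAGggccagcuugg
The 7 bases that pair with the guide's seed, CTTACGT, lay in the 3′UTR of 429 of 18780 human transcripts (2.28%, GENCODE models on GRCh38, one strand searched) and in that of 1 of the 10 genes, *AGO1*. In *AGO1* the match stood within the sequence below, at chromosome 1, 35925253 to 35925279 on the plus strand of GRCh38, with the 7 bases in capitals.
AGO1 3′UTR: ctatgacttaCTTACGTtattctccag
The corresponding match of the sense strand, CAGCTTG, lay in 12.6% of all 3′UTRs and in those of *AGO1*, *AGO2*, *AGO3*, *AGO4* and *DGCR8*. These Argonaute 3′UTRs are long, from 4285 bases in *AGO4* to 16755 bases in *AGO3*. A match of letters is only a description and not a measured site.

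The deposited values were RPKM (reads per kilobase of gene and per unit of sequencing depth). Whole reads were inferred from these values, with library totals of 11040050 to 12816868 reads. The targeted locus was examined first. *ZFR* had 26.0 and 32.3 RPKM in the NC pair and 5.22 and 4.60 in the si-circZFR pair, after scaling between libraries, a log2 difference of -2.34 (standard error 0.18, FDR = 0.0121 by limma). The si-circZFR pair lay below the NC pair, with 284 and 267 reads against 1437 and 1740. Reads of the circle and of linear *ZFR* are not separated in these values. By RT-PCR, the paper reports that the siRNA lowered circZFR and that an effect on *ZFR* was not detectable. The fall in *ZFR* reads here therefore stands beside that report, and how it divides between circle and linear RNA was not tested. The labels name H1299, whereas the study design and the paper name A549. *CDKN2A*, which A549 is known to have lost, had 0 reads in every library (a count of 0 allows up to 3 reads). As the sources differ, the cells are called lung cancer cells here. Defining markers of immune, endothelial and fibroblast cells had 0 to 2 reads per library, apart from *CD14* at 5.84 to 7.99 RPKM and *COL1A1* at 0.620 to 1.88 RPKM. Both of these were higher in the si-circZFR pair, and their part in the results was not tested.

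Per length, the genes fell into an abundant and a scarce set. In NC, the order of scaled RPKM was *AGO2* (21.1 ± 6.17, SD, n = 2), *XPO5* (20.2 ± 0.888), *TNRC6A* (17.01 ± 5.04), *DICER1* (12.2 ± 2.73), *TARBP2* (11.2 ± 0.295), *DROSHA* (9.40 ± 2.02), *DGCR8* (8.88 ± 1.03), *AGO1* (2.67 ± 0.557), *AGO4* (2.31 ± 0.509) and *AGO3* (1.80 ± 0.0930). Neighbours in this order overlapped between libraries, except for the steps from *TARBP2* to *DROSHA*, from *DGCR8* to *AGO1* and from *AGO4* to *AGO3*. By RPKM, *AGO2* was the most abundant Argonaute, and the other three Argonautes lay below every processing factor. In si-circZFR the order began with *XPO5* (16.1 ± 0.298, SD, n = 2), *DROSHA* (15.3 ± 1.90), *AGO2* (13.7 ± 2.70), *DICER1* (13.3 ± 0.663) and *TNRC6A* (12.1 ± 1.55), each overlapping its neighbour.

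**Figure D1:**
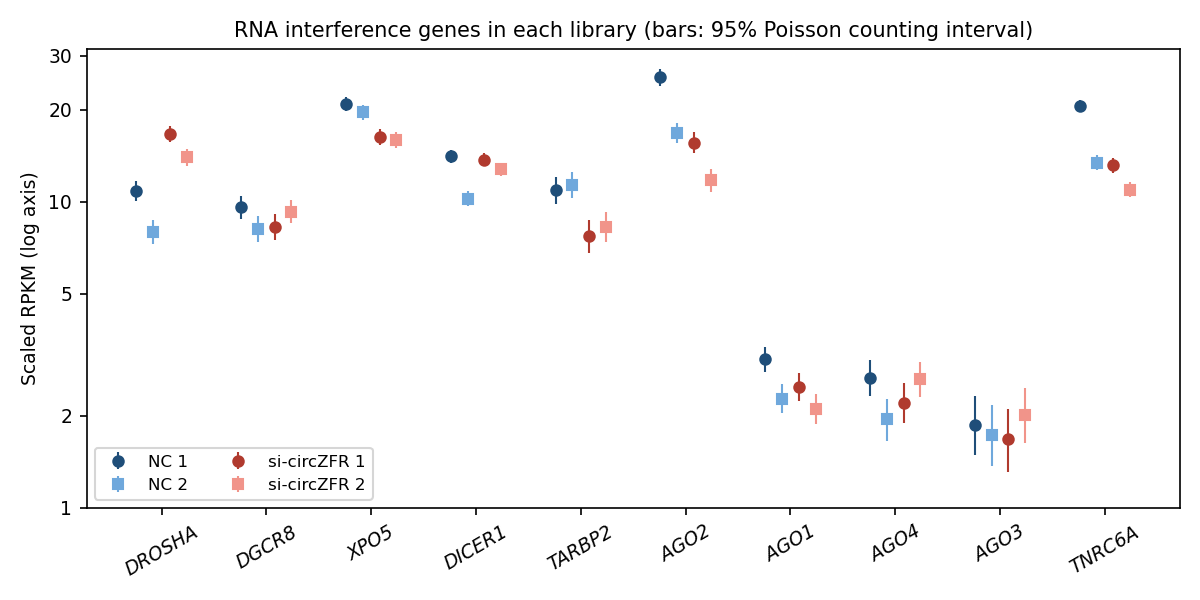
Scaled RPKM (vertical axis, logarithmic) of the 10 genes in each of the 4 libraries, with bars for the 95% Poisson interval of the reads, which covers counting error only. *DROSHA* lies higher in both si-circZFR libraries than in both NC libraries, *XPO5*, *TARBP2*, *AGO2* and *TNRC6A* lie lower, and the other 5 genes overlap between the groups.

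These levels depend on the length assigned to each gene. The lengths are not stated with the values and were inferred from them. They were 3500 bases for *AGO2*, 3831 for *AGO3* and 2981 for *TARBP2*. Their MANE Select transcripts, the reference transcript of each gene, have 14595, 19660 and 1510 bases. For the other 7 genes the lengths were closer, such as 5422 and 5416 bases for *DROSHA*. Per kilobase of the MANE transcript, the NC means would be 5.07 for *AGO2*, 0.351 for *AGO3* and 22.0 for *TARBP2*. The transcripts on which the reads were counted are not given in the sources used here. Ratios of RPKM between the groups do not depend on the length assigned.

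To compare the machinery between si-circZFR and NC, the log2 values of scaled RPKM plus 1 were compared between the groups. Of the 10 genes, 0 were called by limma (FDR under 0.05 and a log2 difference over 1 in size), against 1.21% of the 14804 genes tested, and 0 had an FDR under 0.05 alone, which 1.36% of all genes reached. At an unadjusted p under 0.05, 1 gene was higher and 1 was lower, against 10.6% and 11.9% of all genes. In 1 gene both si-circZFR libraries were above both NC libraries and in 4 genes both were below, where 27.8% and 28.1% of all genes were so separated. The median log2 difference of the 10 genes was -0.08, beside 0.0034 for all genes tested. Limma-voom on the recovered reads also had 0 of the 10 genes at FDR under 0.05, which 3.2% of all genes reached, and 2.53% with a log2 difference over 1 in size.

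Among the nuclear factors, *DROSHA* (chromosome 5, 31400494 to 31532196, GRCh38, minus strand) had the largest log2 difference of the 10 genes over the 4 libraries, although not after the correction for length described further on. It had 10.8 scaled RPKM in NC 1, 7.97 in NC 2, 16.7 in si-circZFR 1 and 14.0 in si-circZFR 2, from 689, 494, 1044 and 934 reads. Both si-circZFR libraries were higher than both NC libraries. The mean was 1.63 times that of NC, with a log2 difference of 0.66 (standard error 0.20, FDR = 0.13 by limma), which did not pass the test over all genes. In the order of all log2 differences it stood at the 95.4th percentile. The size depended on the NC libraries. Without NC 1 it was 0.86 (FDR = 0.039 by limma), in a fit where 14.1% of all genes had an FDR under 0.05, and without NC 2 it was 0.46 (FDR = 0.237 by limma). In these and all later fits without 1 library, the lone library of a group is assumed to vary like the pair of the other group. *DROSHA* lies 822153 bases from *ZFR* on the same chromosome.

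*DGCR8* (chromosome 22, 20080221 to 20111877, plus strand), the partner of DROSHA, had 9.61 and 8.15 scaled RPKM in the NC pair and 8.28 and 9.29 in the si-circZFR pair. The groups overlapped, and the log2 difference was -0.01 with a 95% interval of -0.44 to 0.42. Within a library, where no scaling is needed, the RPKM of *DROSHA* was 1.13 and 0.978 times that of *DGCR8* in the NC pair and 2.02 and 1.51 times in the si-circZFR pair. The ratio was therefore higher in both si-circZFR libraries (1.76 ± 0.360 against 1.052 ± 0.105, SD, n = 2 each, two-sided exact permutation p = 0.333, the smallest that 2 against 2 libraries allow).

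The *DGCR8* mRNA itself carries 2 hairpins that Microprocessor can cut, and their mature microRNAs are shown with the seed (bases 2 to 8) in capitals, from RefSeq on GRCh38.
hsa-miR-3618: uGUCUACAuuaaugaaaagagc
hsa-miR-1306-5p: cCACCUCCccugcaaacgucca
hsa-miR-1306-3p: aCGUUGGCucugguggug
The 3 seeds differ. The hairpin of *MIR3618* lies at chromosome 22, 20085746 to 20085833. The hairpin genes had 2, 1, 0 and 0 reads (*MIR3618*) and 3, 0, 2 and 3 reads (*MIR1306*), in the order NC and then si-circZFR. Such counts do not resolve a difference between the groups, and mature microRNAs are not resolved in these gene values.

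*XPO5* (chromosome 6, 43522334 to 43576038, minus strand), the export receptor of hairpins, had replicates close to each other. It had 20.9 and 19.6 scaled RPKM in the NC libraries and 16.3 and 15.9 in the si-circZFR libraries, from 1011 to 1314 reads. Both si-circZFR libraries were lower, by more than the replicates of either group differed. The log2 difference was -0.31 (standard error 0.16, 95% interval -0.69 to 0.07, FDR = 0.296 by limma), which did not pass the test. An exon span of *XPO5* overlaps *POLR1C* on the other strand, and genes on the other strand also overlap exon spans of *AGO1*, *AGO3*, *DGCR8*, *TARBP2* and *TNRC6A*. Whether the reads were counted by strand is not given in the sources used here.

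In the cytoplasm, *DICER1* (chromosome 14, 95086228 to 95158010, minus strand) had 14.1, 10.2, 13.7 and 12.8 scaled RPKM across the NC and then the si-circZFR libraries. Both si-circZFR libraries lay between the NC libraries. The log2 difference was 0.13 with a 95% interval of -0.34 to 0.60, and it was -0.08 without NC 2. *TARBP2* (chromosome 12, 53500921 to 53506431, plus strand), which helps DICER1 to hand the duplex to an Argonaute, had 10.9 and 11.4 in NC and 7.73 and 8.29 in si-circZFR. Its replicates were close, and both si-circZFR libraries were lower. The mean was 0.718 times that of NC, a log2 difference of -0.43 (standard error 0.17, FDR = 0.191 by limma), which again did not pass over all genes. *DICER1* was 1.29 and 0.902 times *TARBP2* in the NC pair and 1.78 and 1.54 times in the si-circZFR pair, which gave the same exact p of 0.333. The size of this ratio depends on the lengths assigned. Per kilobase of the MANE transcript, the NC means would be 12.0 for *DICER1* and 22.0 for *TARBP2*. After the correction for length described further on, the log2 differences were -0.01 for *DICER1* and -0.46 for *TARBP2*.

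Among the Argonautes, *AGO2* (chromosome 8, 140520156 to 140635633, minus strand) had 25.5 scaled RPKM in NC 1, 16.8 in NC 2, 15.6 in si-circZFR 1 and 11.8 in si-circZFR 2. The groups did not overlap, but NC 2 was close to si-circZFR 1. The mean was 0.647 times that of NC, with a log2 difference of -0.58 (standard error 0.24, FDR = 0.222 by limma). The difference between NC 2 and NC 1 was also -0.58. Without NC 1 the group difference was -0.29 (FDR = 0.367 by limma), and without NC 2 it was -0.87 (FDR = 0.131 by limma).

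The other three Argonautes lie side by side on chromosome 1, in the order *AGO4* (35808016 to 35857890), *AGO1* (35869808 to 35930532) and *AGO3* (35930718 to 36072500), all on the plus strand, with 11917 bases between the first pair and 185 between the second. *AGO1* had 3.07 and 2.28 scaled RPKM in NC and 2.49 and 2.11 in si-circZFR. *AGO4* had 2.67 and 1.95 in NC and 2.21 and 2.64 in si-circZFR, and *AGO3* had 1.87 and 1.74 in NC and 1.67 and 2.02 in si-circZFR. All 3 overlapped between the groups. Their log2 differences were -0.15 for *AGO1* (95% interval -0.60 to 0.30), 0.06 for *AGO4* (95% interval -0.40 to 0.51) and 0.02 for *AGO3* (95% interval -0.37 to 0.41). *AGO3* rested on 74 to 95 reads per library.

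Summed over the 4 Argonautes, the scaled RPKM was 33.1 in NC 1, 22.7 in NC 2, 22.0 in si-circZFR 1 and 18.5 in si-circZFR 2. *AGO2* took 77.1% and 73.8% of the summed RPKM in the NC pair and 71.0% and 63.5% in the si-circZFR pair. Its share was therefore lower in both si-circZFR libraries, 67.3% ± 5.28 against 75.4% ± 2.31 (SD, n = 2 each, two-sided exact permutation p = 0.333). These shares depend on the gene lengths discussed for the levels. The shares of *AGO1* and *AGO4* were higher in both, and that of *AGO3* overlapped. Over the 6 ratios and shares compared, the adjusted p was 0.4 for the ones with groups apart and 0.667 for *AGO3* (exact permutation tests).

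**Figure D2:**
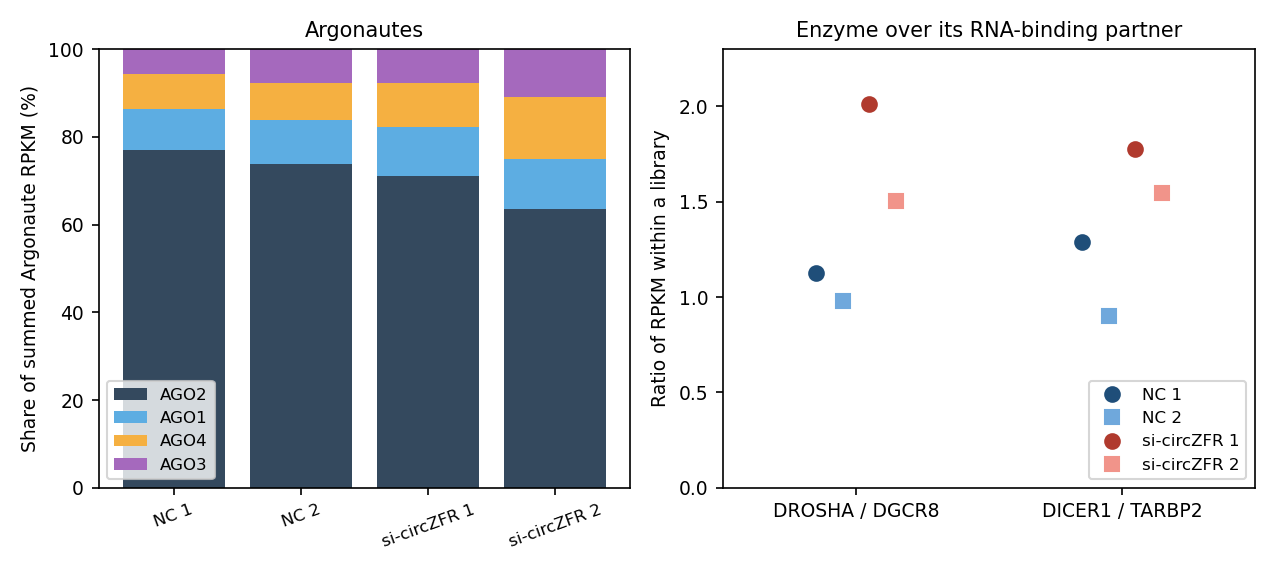
Left, the share of each Argonaute in the summed Argonaute RPKM (percent) in each library. Right, the ratio of RPKM within a library of DROSHA to DGCR8 and of DICER1 to TARBP2, one point per library. *AGO2* takes 77.1% in NC 1 and 63.5% in si-circZFR 2, and both ratios are higher in the si-circZFR libraries than in the NC libraries.

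*TNRC6A* (chromosome 16, 24610209 to 24827632, plus strand), the effector that Argonautes bind, had its libraries in the same order as *AGO2*. It had 20.6 and 13.4 scaled RPKM in the NC pair and 13.2 and 10.96 in the si-circZFR pair. NC 1 stood above the other libraries, while NC 2 was within 0.03 (log2) of si-circZFR 1. The log2 difference was -0.44 (standard error 0.23, FDR = 0.307 by limma). Without NC 1 it was -0.15 (FDR = 0.579 by limma), and without NC 2 it was -0.73 (FDR = 0.134 by limma).

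**Figure D3:**
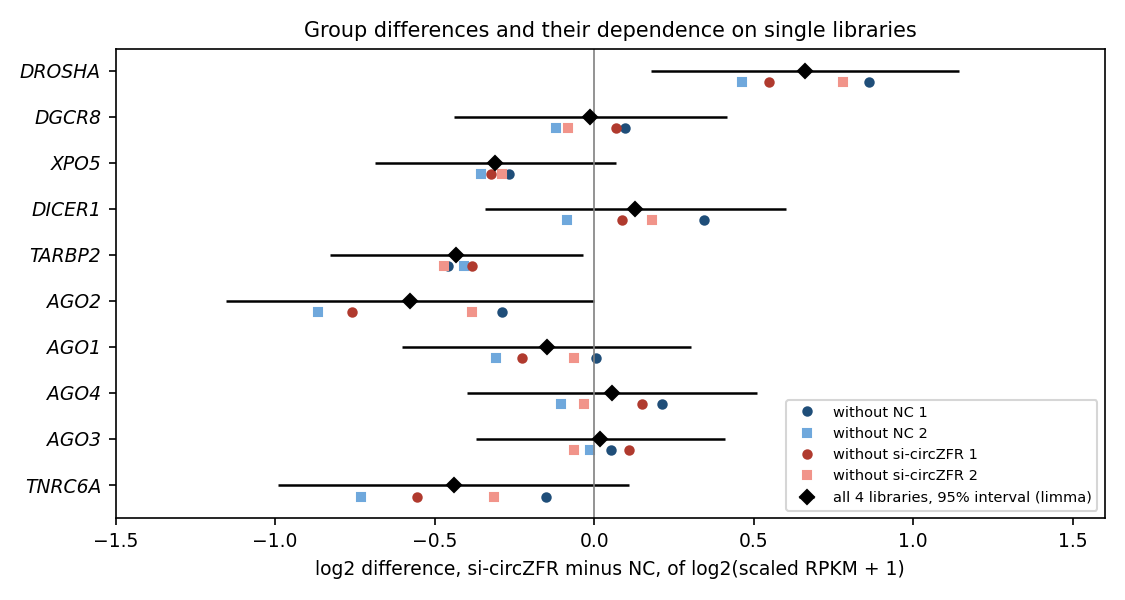
Log2 difference of each gene, si-circZFR minus NC, on the scale of log2(scaled RPKM + 1), with the 95% interval of limma over all 4 libraries (diamonds and bars) and the value without each library in turn (coloured points). The points of *XPO5* and *TARBP2* stay close together, and those of *AGO2* and *TNRC6A* spread from -0.87 to -0.29 and from -0.73 to -0.15.

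The size of the group differences was read against that between replicates. NC 2 was below NC 1 for 9 of the 10 genes, with a median log2 difference of -0.31, whereas over all genes the median was 0.01. For *AGO1*, *AGO2*, *AGO4*, *DICER1*, *DROSHA* and *TNRC6A* the 95% counting intervals of the NC libraries did not overlap, and for *AGO2*, *DROSHA* and *TNRC6A* neither did those of the si-circZFR libraries. For *DROSHA*, *XPO5* and *TARBP2* the group difference was larger in size than the difference within either group. The group difference also moved with transcript length. Across the 14804 genes, Spearman's rho of the log2 difference with length was 0.315, and it was -0.392 between NC 2 and NC 1. The 10 genes are long, with a median of 5393 bases against 2886.5. After a smooth correction for length in each library, the log2 difference was 0.56 for *DROSHA*, -0.46 for *TARBP2*, -0.41 for *XPO5*, -0.62 for *AGO2* and -0.57 for *TNRC6A*, with FDR from 0.141 to 0.183 by limma.

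**Figure D4:**
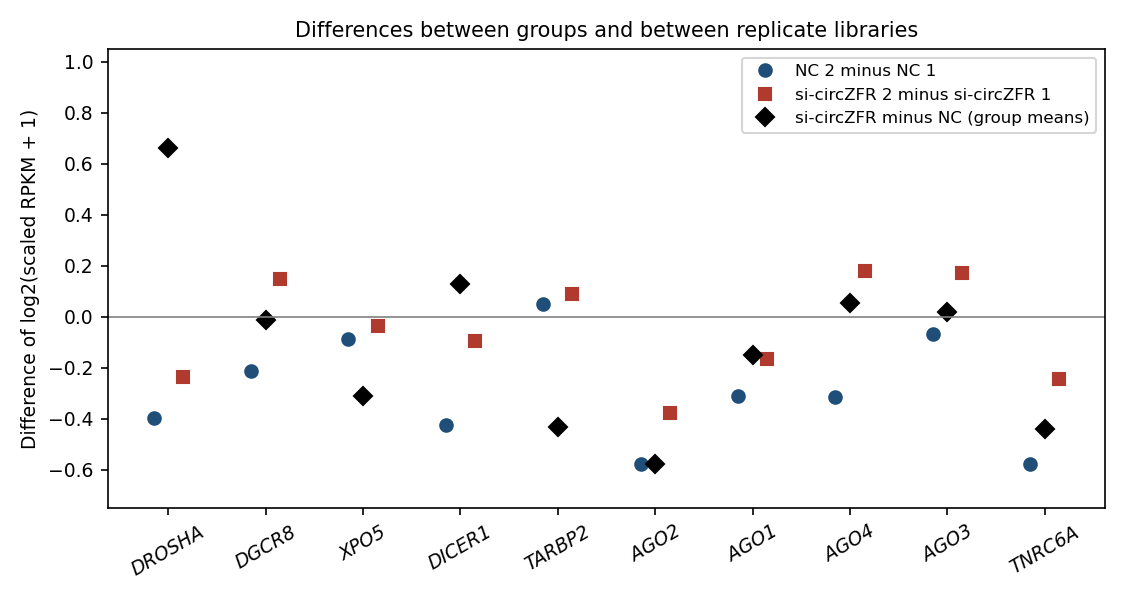
Differences of log2(scaled RPKM + 1) between the group means (diamonds) and between the replicate libraries of NC (circles) and of si-circZFR (squares), for each gene. The group difference and the NC difference of *AGO2* are both -0.58, while *DROSHA* is at 0.66 between groups and at -0.40 between the NC libraries.

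The other genes of the pathway were 72 in 8 lists, of which 66 were tested and 0 were called by limma, beside 1.21% of all genes. At an unadjusted p under 0.05, 2 were higher and 5 lower, beside 10.6% and 11.9% of all genes, and limma-voom had 1 gene at FDR under 0.05, beside 3.2% of all genes. The median log2 difference was -0.03.

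Of the 5 helpers of Microprocessor, none had an unadjusted p under 0.05 by limma. *SRSF3*, a splicing factor that aids the cutting of hairpins, had 58.3 and 78.4 scaled RPKM in NC and 48.6 and 54.4 in si-circZFR. The RNA helicase *DDX17* had 54.4 and 27.7 in NC and 44.8 and 50.2 in si-circZFR, with a log2 difference of 0.28. The groups overlapped, and the value was 0.75 without NC 1 and -0.19 without NC 2. The related helicase *DDX5* was at 0.19, at 0.40 without NC 1 and at -0.01 without NC 2. Of the 9 partners of DICER1 and RISC helpers, *PRKRA*, another double-stranded RNA-binding partner of DICER1, had 13.0 and 16.4 in NC and 11.4 and 10.2 in si-circZFR. The groups did not overlap, with a log2 difference of -0.41 (FDR = 0.246 by limma), near the -0.43 of *TARBP2*. *FMR1* was at 0.38 and the helicase *DHX9* at -0.33, and neither passed.

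The GW182 paralogs *TNRC6B* and *TNRC6C* were both scarcer than *TNRC6A*. *TNRC6B* had 1.44 to 1.89 scaled RPKM over the 4 libraries, with a log2 difference of 0.09. *TNRC6C* had 0.575 and 0.546 in NC and 0.284 and 0.291 in si-circZFR, from 66, 61, 32 and 35 reads. Its groups did not overlap, and its mean was 0.512 times that of NC. On the scale with 1 added to the RPKM the difference was -0.28 (FDR = 0.227 by limma), and by limma-voom it was -0.95 (FDR = 0.122).

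Among the 8 chaperones that open an Argonaute for a duplex, *STIP1*, which joins the HSP70 and HSP90 chaperones, had the smallest p of all the pathway genes. It had 121.6 and 149.4 scaled RPKM in NC and 73.8 and 62.6 in si-circZFR, a log2 difference of -0.98 (standard error 0.20, FDR = 0.0664 by limma). Both si-circZFR libraries were lower, and limma-voom put it at -0.99 (FDR = 0.039). *HSP90AB1* was at -0.62 (FDR = 0.24 by limma), and *AHSA1*, an activator of the HSP90 ATPase, was at 0.39 (FDR = 0.232 by limma). *HSP90AA1* at 0.09 and *HSPA8* at -0.52 (FDR = 0.429 by limma) were named after their values were seen. In 1 of the 8 chaperones both si-circZFR libraries were above both NC libraries, and in 4 both were below, beside 27.8% and 28.1% of all genes. The median of the list was -0.18.

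Of the 27 genes of deadenylation and decapping, 2 were higher and 3 lower at an unadjusted p under 0.05. *PAN2*, the catalytic subunit of a deadenylase, had 6.53 and 3.23 scaled RPKM in NC and 8.56 and 8.67 in si-circZFR, a log2 difference of 0.77 (FDR = 0.176 by limma). *DCP2*, the decapping enzyme, had 1.75 and 1.10 in NC and 2.36 and 2.47 in si-circZFR, a log2 difference of 0.51 (FDR = 0.182 by limma). *CNOT9*, listed under its older symbol *RQCD1*, had 22.9 and 28.8 in NC and 16.6 and 17.5 in si-circZFR, a log2 difference of -0.57 (FDR = 0.139 by limma). The remaining pair, *CNOT3* at -0.63 and *CNOT7* at -0.50, are CCR4-NOT subunits like *CNOT9* and were named after their values were seen. The other *CNOT* genes of the list, also named after their values were seen, went both ways. *CNOT1* was at -0.31, *CNOT2* at -0.40, *CNOT11* at -0.25 and *CNOT6L* at -0.09, while *CNOT6* was at 0.17, *CNOT8* at 0.18 and *CNOT10* at 0.04. The median of the list was 0.04. No gene of this list passed the test over all genes.

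Small RNA tailing and turnover was covered by 10 tested genes. *LIN28B*, an RNA-binding protein that blocks the maturation of let-7, had 1.07 and 1.18 scaled RPKM in NC and 0.236 and 0.605 in si-circZFR, from 69, 74, 15 and 41 reads. Both si-circZFR libraries were lower, with a log2 difference of -0.59 (FDR = 0.111 by limma) and of -1.53 by limma-voom (FDR = 0.0872). The nucleases *XRN2* and *PNPT1* were at -0.26 each. The germline PIWI Argonautes were near the limit of detection, with 0 reads for *PIWIL1* and *PIWIL3*, 3 to 11 for *PIWIL2* and 0 to 3 for *PIWIL4*, and were not tested. Of the export and transport genes, *RAN*, the GTPase with which XPO5 carries its cargo, had 132.2 and 187.8 in NC and 115.3 and 108.4 in si-circZFR. Its log2 difference was -0.49 (FDR = 0.264 by limma), and it was -0.74 without NC 1 and -0.24 without NC 2. Those of the nucleoporin *NUP93* and the export receptor *XPO1* were -0.37 and 0.29.

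**Figure D5:**
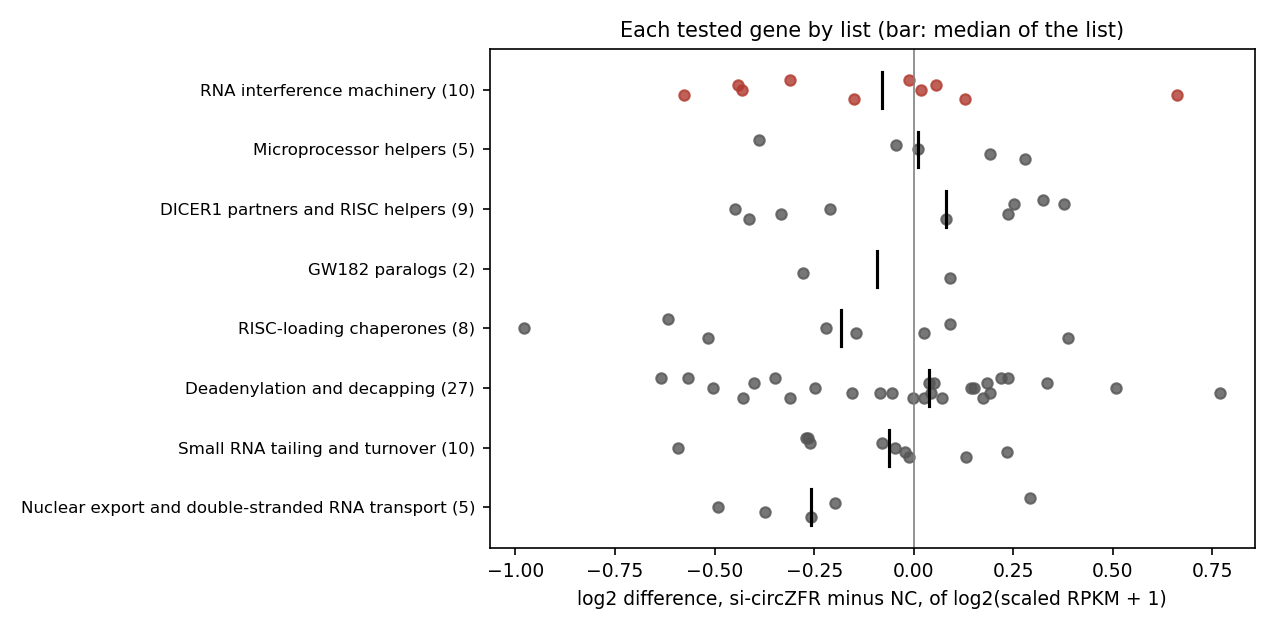
Log2 difference, si-circZFR minus NC, of every tested gene of the 10-gene set (red) and of 7 further lists (grey), with a bar at the median of each list. The list medians lie between -0.26 and 0.08, and *STIP1* at -0.98 is the lowest point.

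Among the 5 genes whose centred log2 values over the 4 libraries lay closest to those of *AGO2* were *BRI3*, *ATP5A1P2*, *FTH1P4* and *CCDC74B*, with a root mean square difference of 0.0353 to 0.0638. These had NC 1 as the highest library and si-circZFR 2 as the lowest. *BRI3*, the closest, had 81.1, 57.1, 49.9 and 39.5 scaled RPKM. With 4 libraries, such a likeness is only a description, and the pseudogenes *ATP5A1P2* and *FTH1P4* have near-identical copies, which makes their values uncertain.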

How the data were processed

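RNA from 2 NC and 2 si-circZFR libraries was sequenced on the Ion Proton by the authors. They named hg38 in the paper and GRCh37 in the processing notes as the build, and deposited 1 RPKM value per gene and library. The aligner, counter and annotation are not given in the sources used here. Groups came from the sample labels.

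Library totals and whole reads were recovered from the RPKM values by a search over gene lengths (tolerance 0.001), which gave whole reads for 24282 of 24289 genes above 0. The shortest length that fitted was taken, so a length and its reads can both be too small by a common factor. For 227 of 231 hairpin genes above 0, the known length was the found length or a multiple of it. Genes above 1 CPM of recovered reads in at least 2 libraries were tested. Libraries were brought to a common scale with trimmed mean (TMM) factors, which left out 30% of the log ratios and 5% of the levels and ran from 0.892 (NC 2) to 1.11 (si-circZFR 2). Then log2(scaled RPKM + 1) was tested by limma with a trended prior variance and Benjamini-Hochberg adjustment (FDR). This scale understates changes of low genes. The planned filter differs from a minimum on RPKM, because very short genes pass that one with few reads. The SVA step of the paper was not repeated. The fit was tested on simulated data, in which 200 genes were changed by known amounts. Of these, 155 reached an FDR under 0.05, and 13 of the 168 genes at that FDR were not changed. The simulated reads had a fixed dispersion and no trend with length, unlike these libraries.

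The 10 genes, the pathway lists and the tests were chosen with earlier results of these data known. Named genes were the 10 genes, *ZFR*, the cell type markers, from every list the 3 genes ranked first by p, and the 5 genes most like *AGO2*, and some of these are not reported here. The within-library ratios of *DROSHA* to *DGCR8* and of *DICER1* to *TARBP2* were chosen after the values were seen. Alternatives covered scaling, filter, pseudocount, replicate block, length, limma-voom, the prior variance and leaving out each library. Gene models came from GENCODE on GRCh38. Intervals of reads are exact Poisson intervals for counting error only. The software was limma 3.58.1 in R 4.3.3, and scipy 1.17.1, pandas 2.3.3, numpy 2.4.6 and matplotlib 3.10.9 in Python 3.11.15.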

Additional observations from a re-analysis of the deposited data

How the results depend on the processing

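Of 140 values (10 genes under 14 alternatives), 126 kept their direction and their side of FDR 0.05, 13 changed direction and 1 passed FDR 0.05. *DROSHA* stayed higher, and *AGO2*, *XPO5*, *TARBP2* and *TNRC6A* stayed lower, under all 14. These are the genes whose groups did not overlap, so leaving out 1 library could hardly change their direction. The replicate block and the prior variance leave the log2 difference itself as it was. All alternatives use the same libraries, so a kept direction is no independent support. The one that passed was *DROSHA* without NC 1, at 0.86, where 14.1% of all genes passed. Direction changed with the length correction for *AGO3* (-0.0388), *AGO4* (-0.0609) and *DICER1* (-0.0124), and for *DGCR8* with library size alone (0.16) and with RPKM of at least 1 as the filter (0.0042). Leaving out 1 library, the differences ran from -0.3075 to 0.0066 for *AGO1*, from -0.064 to 0.1096 for *AGO3*, from -0.1033 to 0.2137 for *AGO4*, from -0.0839 to 0.3425 for *DICER1* and from -0.119 to 0.0951 for *DGCR8*. The cause was not tested. With library size alone, the 10 genes had a median of 0.064, below the 0.15 of all genes. At an unadjusted p under 0.05, 0 of the 10 were then lower (7% of all genes), against 2 without a filter (8.01%), 3 with the replicate block (12.2%), 4 with the length correction (10.6%) and 2 by limma-voom (11.9%). Leaving out 1 library gave 0 to 2 lower (5.15% to 18.1% of all genes) and 0 to 1 higher (4.38% to 17.2%), a median from -0.21 (without NC 2) to 0.03 (without NC 1), and 0 to 2 pathway genes called (*STIP1* at -1.12 and *PAN2* at 1.19 without NC 1). Without NC 1, FDR was also under 0.05 by limma for *DDX17*, *EIF6* (named after its value was seen), *CNOT9*, *DCP2* and *RAN*, at 0.70 to 0.75 in size, and without NC 2 for none of the pathway genes or of all genes (3003 at an unadjusted p under 0.05). The number of genes called over all genes was 179, and it was 8 with the RPKM filter, 0 without a filter (3639 at an unadjusted p under 0.05 by limma), 59 with a pseudocount of 0.1, 291 with the replicate block, 374 by limma-voom and 46 without a trend in the prior variance. Leaving out 1 library gave 0 (without NC 2) to 1025 (without NC 1). The replicate numbers share no stated origin, and the deviations of same-numbered libraries correlated at 0.085 across genes. The block changed no call of the 10 genes. With 2 libraries a group, exact tests cannot go below p = 0.333.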
